A study of Mus musculus with 8 samples.

Results

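The genes examined were those of the core TGF-beta route from ligand to nucleus: the ligand gene Tgfb1, the receptor genes Tgfbr1 and Tgfbr2, the SMAD genes Smad2, Smad3, Smad4 and Smad7, the ubiquitin ligase gene Smurf2, and the corepressor genes Ski and Skil. They were taken by symbol from the deposited normalized expression table, which holds 16418 genes, and all 10 were found and had enough reads to be tested. Smad3 was the 1 gene of the 10 to pass the test, lower in KO libraries by a log2 fold change of -0.25, beside 6.39% of all tested genes that passed. That call held in 7 of 17 alternative settings, and without Sample_2909_KO it was Tgfbr2 that passed and not Smad3. The KO libraries came from naive CD4 T cells of Satb1fl/fl x CD4-CreERT2wt/+ mice given tamoxifen, and the WT libraries from untreated mice of that same genotype, with 4 libraries in each group. Every mouse therefore carried loxP-flanked Satb1, which encodes a chromatin organiser, and a tamoxifen-inducible Cre under CD4 sequences. WT names the untreated floxed group, and tamoxifen and the intended deletion cannot be told apart. The cells were sorted from spleen and lymph node as CD3+CD4+CD25- T cells with low or no surface CD44, and their poly(A) RNA was sequenced. The labels state neither the animals' age nor whether each library came from its own animal, so a p-value here measures how these libraries spread, which may be technical.

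TGF-beta is secreted in a latent form, and once released it binds the type II receptor TGFBR2, which then phosphorylates the type I receptor TGFBR1. TGFBR1 phosphorylates SMAD2 and SMAD3, which join SMAD4 and enter the nucleus, while SMAD7 with SMURF ligases and the corepressors SKI and SKIL (SnoN) hold the signal back. In CD4 T cells this signal is known for restraining activation and effector differentiation, and for its part in the formation of induced regulatory T cells and Th17 cells.

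The promoters of Smad3, the gene that fell, and of Tgfbr2, the gene whose groups stood apart, are shown so that their sequence can be read beside their values. Each sequence is the 250 bases before the RefSeq start of the gene, on GRCm38.p6 (the assembly behind mm10), written 5′ to 3′ on the gene's strand. Capitals mark the short SMAD-binding element CAGAC or its reverse complement GTCTG.
Smad3 promoter, chr9:63757995-63758244, minus strand: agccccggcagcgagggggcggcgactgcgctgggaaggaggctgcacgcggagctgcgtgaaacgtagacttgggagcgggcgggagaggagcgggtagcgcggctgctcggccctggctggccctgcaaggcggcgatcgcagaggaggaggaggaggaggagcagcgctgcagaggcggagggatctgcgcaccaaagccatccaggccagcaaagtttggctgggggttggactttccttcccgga
Tgfbr2 promoter, chr9:116175364-116175613, minus strand: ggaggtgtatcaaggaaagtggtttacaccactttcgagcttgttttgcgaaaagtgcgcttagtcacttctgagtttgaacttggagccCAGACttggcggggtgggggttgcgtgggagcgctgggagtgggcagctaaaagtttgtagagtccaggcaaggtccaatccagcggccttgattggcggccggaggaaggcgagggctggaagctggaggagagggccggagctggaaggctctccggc
The Smad3 window held 0 matches, with 69.2% G and C, and the Tgfbr2 window held 1 match, with 58.4%. RefSeq windows were examined for 6 of the 10 genes (7 windows, since Tgfbr1 has more than 1 start). Of those 7 windows, 3 held at least 1 match. No window was available for Skil, and Smad2, Smad4 and Smad7 were left out of this count. The count therefore does not describe all 10 genes. Over 32851 mouse promoter windows of this length, 13861 (42.2%) held at least 1 match and the median share of G and C was 52.4%. A match to these 5 letters is a description of the window.

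Libraries held 7544075 to 9253620 counted reads in KO and 5227758 to 21998174 in WT. Sample_2911_WT had the fewest reads and Sample_2914_WT the most. Read counts were compared by edgeR's robust quasi-likelihood test, and genes whose p stayed under 0.05 after Benjamini-Hochberg adjustment over all 11772 tested genes were called. This called 752 genes (6.39% of those tested), of which 468 (3.98%) were higher and 284 (2.41%) lower in KO libraries. In 1305 genes (11.1%), the groups did not overlap. Satb1 averaged 909.9 ± 87.2 CPM in KO libraries, against 1033 ± 41.4 CPM in WT libraries (SD, n = 4 each), with a log2 fold change of -0.18 that did not pass (adjusted p = 0.0582 by edgeR). CPM, the unit of level used throughout, is the read count scaled to library size with TMM factors. The naive CD4 T cell marker list was detected in full, and its 8 genes summed to 6643 to 7418 CPM in KO and 6697 to 7158 CPM in WT libraries.

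Of the 10 genes, 1 was called lower and 0 higher, beside 2.41% and 3.98% of all tested genes. At an unadjusted edgeR p under 0.05 there were 3 of 10 (Smad3, Tgfbr2 and Skil), or 30%, beside 2124 of 11772 genes, or 18.0%. The differences were small: the median log2 fold change was 0.028, against -0.00047 over all tested genes, and the median size without regard to sign was 0.070, against 0.113. The 95% intervals of all 10 lay between -0.40 and 0.28. These genes had many reads, between 276 and 11948 per gene and library, and a median standard error (SE) of 0.064, against 0.106 over all tested genes. The plots of the levels and of the fold changes show the same 10 genes library by library and as fitted differences. In bulk RNA, fewer cells of a type and less RNA per cell cannot be told apart.

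**Figure D1:**
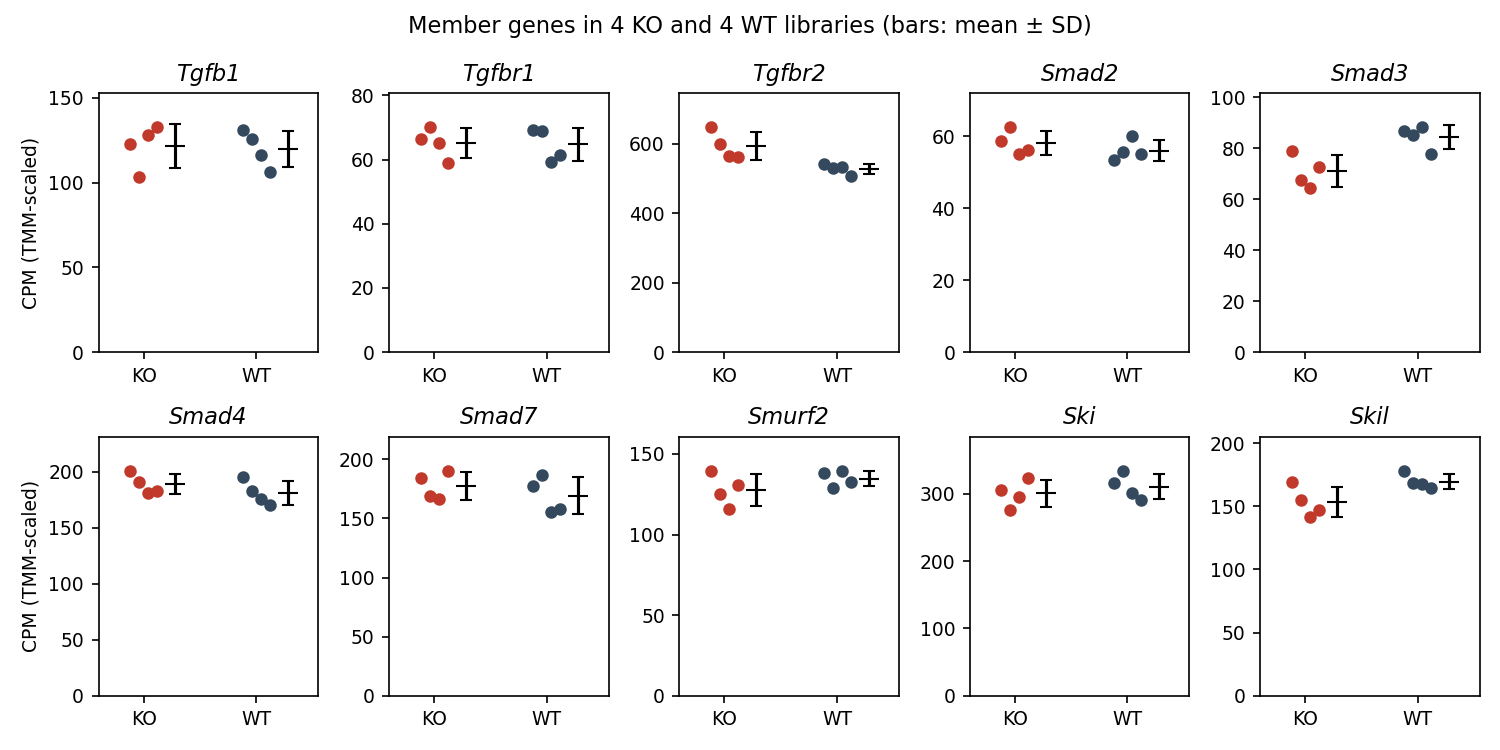
Levels of the 10 genes in CPM (vertical axis, from 0) in the 4 KO (left) and 4 WT (right) libraries, 1 point per library, with the mean ± SD beside the points. Tgfbr2 is the gene whose groups do not overlap, and in Smad3 only Sample_2907_KO, at 79.1 CPM, reaches into the WT range.

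**Figure D2:**
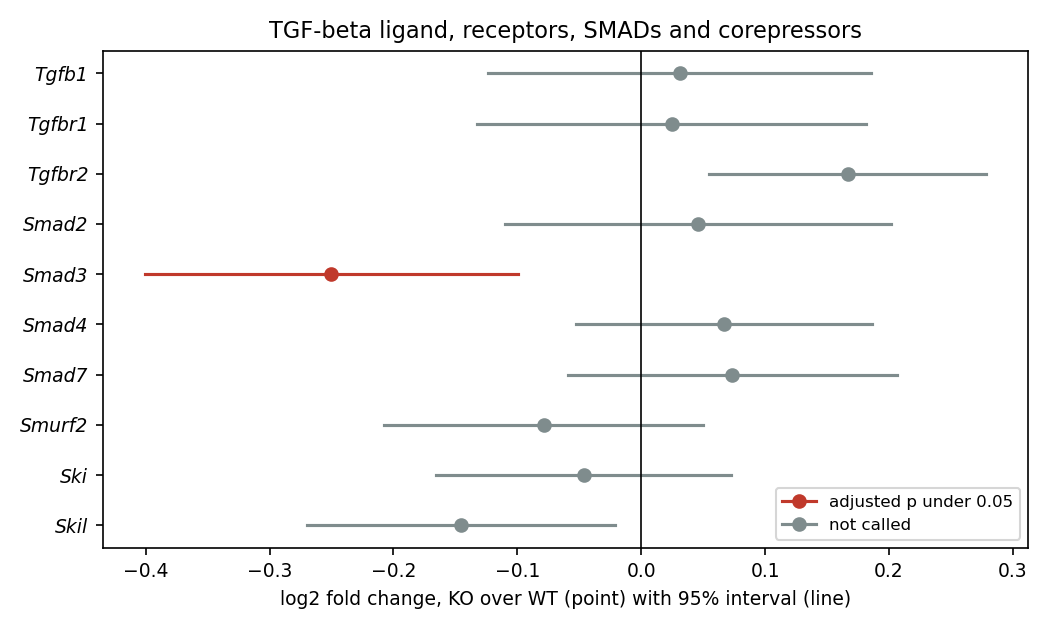
Log2 fold change of each gene, KO over WT, as a point with its 95% interval from edgeR as a line. Smad3, at -0.25, is the one gene in the colour of an adjusted p under 0.05.

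Tgfb1 encodes TGF-beta 1, the ligand made by most lymphocytes (mm10 chromosome 7, 25687002 to 25705077, plus strand). It was read at 122.9, 103.3, 128.3 and 132.6 CPM in the KO libraries, against 130.9, 125.6, 116.2 and 106.4 CPM in the WT libraries. Both groups spread over nearly the same range. The log2 fold change was 0.03 (SE 0.075, 95% interval -0.12 to 0.19, edgeR adjusted p = 0.890).

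Tgfbr2 encodes the ligand-binding type II receptor (mm10 chromosome 9, 116084293 to 116175360, minus strand). Its KO libraries had 647.0, 597.6, 563.2 and 561.5 CPM, against 541.6, 530.1, 532.5 and 507.1 CPM in the WT libraries. Every KO library was above every WT library, a separation seen in 1 of the 10 genes and in 11.1% of all tested genes. The means were 592.3 ± 40.1 CPM in KO and 527.8 ± 14.6 CPM in WT libraries (SD, n = 4 each), a ratio of 1.12. The log2 fold change of 0.17 (SE 0.055, 95% interval 0.055 to 0.28) missed the threshold (edgeR adjusted p = 0.0659, unadjusted p = 0.00481). It was between 0.12 and 0.19 under all 17 alternative settings, and passed in 1 of them, without Sample_2909_KO (edgeR adjusted p = 0.0459, with a range of 0.0459 to 0.295 over the settings).

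Tgfbr1 encodes the type I receptor kinase (mm10 chromosome 4, 47353222 to 47414931, plus strand). It was read at 66.3, 70.1, 65.2 and 59.1 CPM in the KO libraries, against 69.3, 68.8, 59.4 and 61.4 CPM in the WT libraries. The groups overlapped almost completely, with a log2 fold change of 0.02 (SE 0.077, 95% interval -0.13 to 0.18, edgeR adjusted p = 0.917).

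Smad3 encodes a receptor-activated SMAD that binds DNA directly (ENSMUSG00000032402, mm10 chromosome 9, 63646767 to 63757994, minus strand). It had 79.1, 67.6, 64.6 and 72.9 CPM in the KO libraries, against 86.7, 85.2, 88.3 and 77.6 CPM in the WT libraries. The KO libraries were lower, apart from Sample_2907_KO, which stood above Sample_2915_WT. The means of 71.1 ± 6.37 CPM in KO and 84.5 ± 4.71 CPM in WT libraries (SD, n = 4 each) gave a log2 fold change of -0.25 (SE 0.074, 95% interval -0.40 to -0.10, edgeR adjusted p = 0.0349). In percent, Smad3 fell by 15.9%, with a 95% interval of -24.2% to -6.67%. By adjusted p it was 665th of the 752 called genes. The direction held under all 17 alternatives, from -0.31 to -0.19, and the call in 7 of them, DESeq2 among these, with adjusted p between 0.0172 and 0.336. The call was lost with limma-voom (adjusted p = 0.0845), limma-trend on the deposited normalized values (0.0619) and a non-robust edgeR fit (0.0515). It was also lost in edgeR when the library left out was Sample_2908_KO (0.0714), Sample_2909_KO (0.113) or Sample_2910_KO (0.0583) among KO, or Sample_2911_WT (0.0713), Sample_2913_WT (0.0755) or Sample_2914_WT (0.134) among WT, and when Sample_2911_WT and Sample_2914_WT were left out together (0.336).

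Smad2 encodes the other SMAD that the TGF-beta receptor phosphorylates (mm10 chromosome 18, 76241580 to 76310963, plus strand). It had 58.6, 62.5, 55.1 and 56.2 CPM in the KO libraries, against 53.3, 55.5, 60.2 and 55.1 CPM in the WT libraries. The groups overlapped, and the log2 fold change was 0.05 (SE 0.076, 95% interval -0.11 to 0.20, edgeR adjusted p = 0.820). Smad4 encodes the common partner of the receptor-activated SMADs (mm10 chromosome 18, 73639009 to 73703780, minus strand). It had 200.9, 191.2, 181.4 and 182.8 CPM in the KO libraries, against 195.1, 183.1, 175.8 and 170.0 CPM in the WT libraries. Its log2 fold change was 0.07 (SE 0.059, 95% interval -0.053 to 0.19, edgeR adjusted p = 0.609), and its groups overlapped too.

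Smad7 encodes the inhibitory SMAD that TGF-beta itself induces and that blocks the activated receptor (mm10 chromosome 18, 75367529 to 75395935, plus strand). It had 184.0, 168.7, 166.4 and 190.4 CPM in the KO libraries, against 177.6, 187.1, 155.2 and 157.6 CPM in the WT libraries. The log2 fold change was 0.07 (SE 0.065, 95% interval -0.059 to 0.21, edgeR adjusted p = 0.614). Smurf2 encodes a ubiquitin ligase that SMAD7 brings to the receptor for degradation (mm10 chromosome 11, 106820066 to 106920715, minus strand). It had 139.6, 124.9, 115.8 and 131.0 CPM in the KO libraries, against 138.0, 128.9, 139.3 and 132.9 CPM in the WT libraries. Its log2 fold change was -0.08 (SE 0.063, 95% interval -0.21 to 0.050, edgeR adjusted p = 0.568). Both genes had overlapping groups. In the GENCODE annotation, 58 exon bases of Smurf2 are shared with the miRNA gene Gm27322 on the same strand.

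Ski and Skil encode related proteins that bind SMADs on DNA and bring in histone deacetylase complexes. Ski (mm10 chromosome 4, 155154075 to 155222592, minus strand) had 306.2, 276.5, 296.0 and 323.5 CPM in the KO libraries, against 316.5, 334.3, 301.7 and 290.3 CPM in the WT libraries. Its log2 fold change was -0.05 (SE 0.058, 95% interval -0.17 to 0.073, edgeR adjusted p = 0.754). Skil (mm10 chromosome 3, 31095058 to 31122577, plus strand) had 168.9, 154.7, 141.9 and 146.9 CPM in the KO libraries, against 178.1, 168.2, 167.3 and 164.5 CPM in the WT libraries. The lowest 3 values of Skil over all 8 libraries were KO libraries, while Sample_2907_KO lay inside the WT range. The means were 153.1 ± 11.8 CPM in KO and 169.5 ± 5.94 CPM in WT libraries (SD, n = 4 each), with a log2 fold change of -0.15 (SE 0.061, 95% interval -0.27 to -0.021) that did not pass (edgeR adjusted p = 0.179, unadjusted p = 0.0233).

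Levels of different genes were compared per kilobase of exon. On this scale Tgfbr2 was the highest of the 10, at 72.4 ± 4.89 CPM per kb in KO and 64.5 ± 1.79 CPM per kb in WT libraries (SD, n = 4 each), above 95.3% of all tested genes. Its partner receptor Tgfbr1 was near the bottom, at 9.97 CPM per kb in KO and 9.90 CPM per kb in WT libraries. Ski followed Tgfbr2 with 54.0 CPM per kb in KO and 55.9 in WT libraries. Smad4 was next with 50.9 CPM per kb in KO and 48.8 in WT libraries. Smad7 stood at 39.2 CPM per kb in KO and 37.5 in WT libraries. These were the 4 genes with the most RNA per length: the receptor that binds the ligand, the shared SMAD, an inhibitory SMAD and a corepressor. Tgfb1 had 24.1 CPM per kb in KO and 23.8 in WT libraries. Smurf2 had 20.7 CPM per kb in KO and 21.9 in WT libraries. Skil had 15.8 CPM per kb in KO and 17.5 in WT libraries. Smad3 had 12.8 CPM per kb in KO and 15.2 in WT libraries, and Smad2 was lowest, at 6.62 CPM per kb in KO and 6.38 in WT libraries, near the middle of all tested genes (percentile 45.3). Over the 8 libraries, the neighbours Ski and Smad4, Tgfb1 and Smurf2, and Skil and Smad3 had overlapping ranges, and the other neighbours in this order did not. Reads shared with other genes and differences in the transcript forms used are not corrected on this scale.

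**Figure D3:**
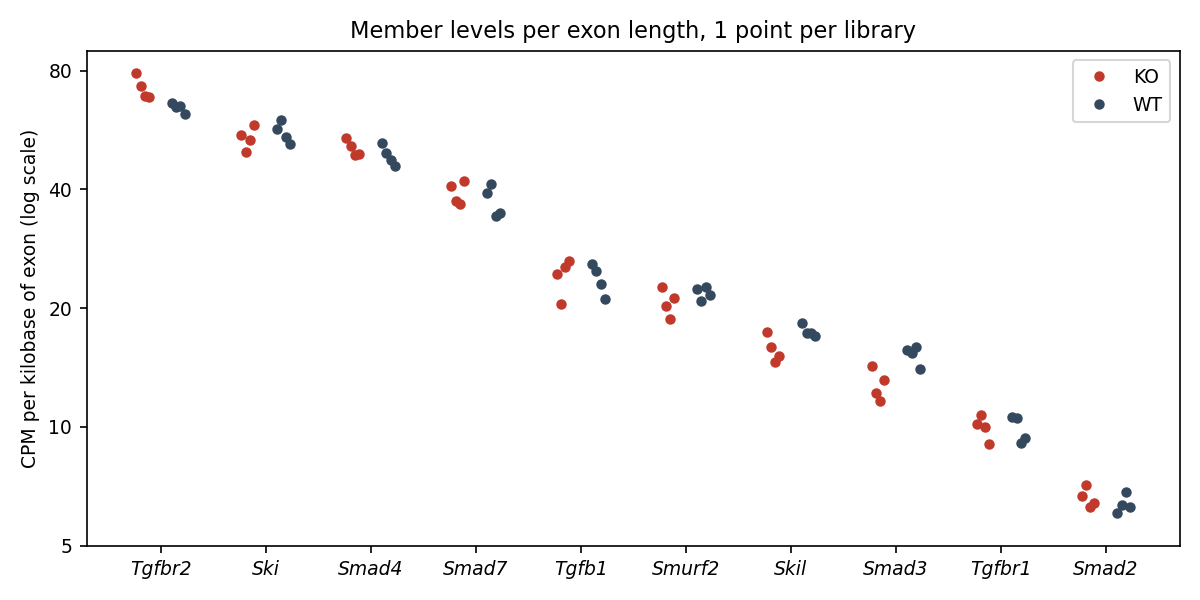
Level of each gene in CPM per kilobase of exon (vertical log axis), 1 point per library, KO left of WT, with the genes ordered from highest to lowest. Tgfbr2 (72.4 in KO, 64.5 in WT libraries) and Smad2 (6.62 in KO, 6.38 in WT libraries) mark the ends of the order.

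Ratios between pairs of these genes within a library do not depend on the scaling of that library, and 4 were compared by exact permutation of the library labels (2-sided, 70 relabellings, smallest possible p = 0.0286). Smad3 over Smad2, the balance of the receptor-activated SMADs, was 1.35, 1.08, 1.17 and 1.30 in the KO libraries, against 1.63, 1.54, 1.47 and 1.41 in the WT libraries. Every KO library was below every WT library, and the log2 ratio was 0.285 ± 0.143 in KO and 0.588 ± 0.088 in WT libraries (SD, n = 4 each), a difference of -0.30. Its exact permutation p was 0.0286, and 0.0571 after Benjamini-Hochberg adjustment over the 4 ratios, so it did not pass. With 2 ratios at the smallest p, this adjusted p is set by the design.

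Smad7 over Smad3, the inhibitory against a receptor-activated SMAD, was 2.33, 2.49, 2.58 and 2.61 in the KO libraries, against 2.05, 2.19, 1.76 and 2.03 in the WT libraries. Here every KO library was above every WT library, with a log2 difference of 0.32, an exact permutation p of 0.0286 and an adjusted p of 0.0571. Both of these ratios contain Smad3, so they share its values. Tgfbr2 over Tgfbr1 was 9.76, 8.53, 8.64 and 9.51 in the KO libraries, against 7.82, 7.70, 8.97 and 8.26 in the WT libraries. These groups overlapped, with a log2 difference of 0.15 (exact permutation p = 0.114, adjusted p = 0.152). Skil over Ski was 0.552, 0.559, 0.479 and 0.454 in the KO libraries, against 0.563, 0.503, 0.555 and 0.567 in the WT libraries. Its log2 difference was -0.10 (exact permutation p = 0.200, adjusted p = 0.200).

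**Figure D4:**
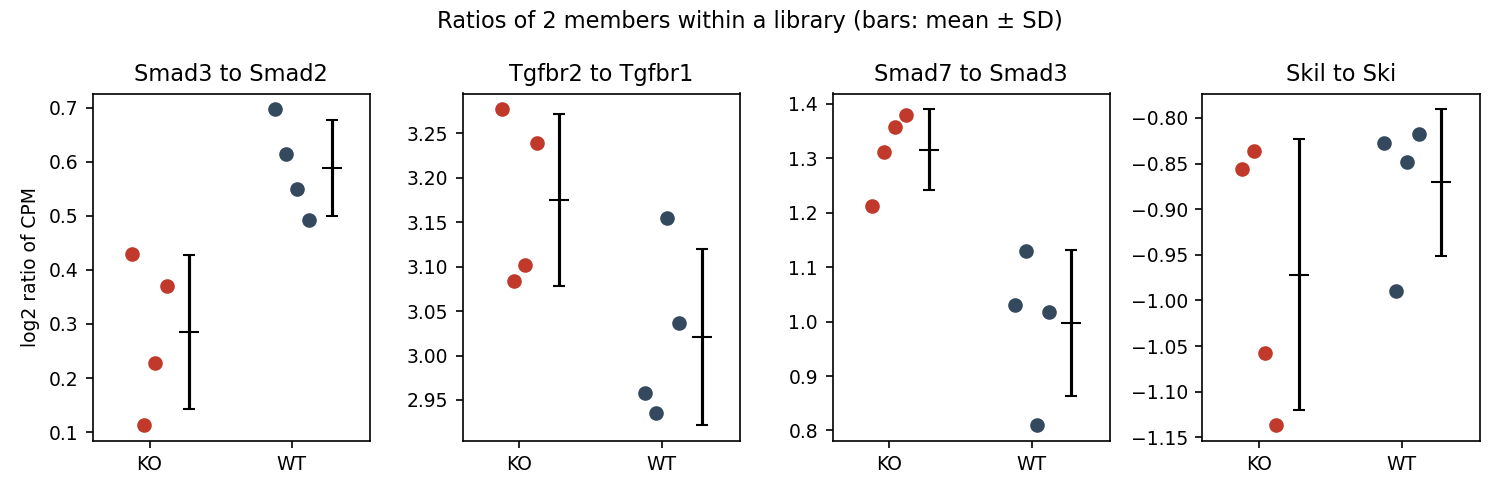
Log2 ratio of CPM of the first-named over the second-named gene within each library (vertical axis), with KO libraries left of WT libraries and the mean ± SD beside the points. The groups separate for Smad3 to Smad2 (difference -0.30) and Smad7 to Smad3 (difference 0.32), and overlap for Tgfbr2 to Tgfbr1 and Skil to Ski.

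The nearest tested genes on either side of the 10 were 19 different genes, and 0 of them were called by edgeR or by DESeq2, with 3 at an unadjusted edgeR p under 0.05. Over all tested genes these shares were 6.39% and 18.0%. The lowest adjusted p among them was that of Stt3b, a subunit gene of the oligosaccharyltransferase, 774 kb from Tgfbr2 (log2 fold change -0.16, edgeR adjusted p = 0.0740). On either side of Smad3 the nearest tested genes were Aagab and Zwilch. Aagab, 2.18 kb away, gave a log2 fold change of 0.09 (adjusted p = 0.619 by edgeR). Zwilch, a kinetochore gene 379 kb away with 4.32 CPM in KO and 3.03 in WT libraries, had 0.54 (adjusted p = 0.318 by edgeR).

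The genes whose pattern over the 8 libraries was most like that of Smad3 were found by the root mean square difference of mean-centred log2 CPM among 9548 tested genes of at least 5 CPM. They were C1qbp (0.0525), Slc43a2 (0.0621) and Usp40 (0.0658), beside a median of 0.204 over all genes compared. C1qbp encodes a mainly mitochondrial protein and gave a log2 fold change of -0.20 (adjusted p = 0.116 by edgeR). Slc43a2, an amino acid transporter gene, had -0.24 (adjusted p = 0.0489 by edgeR). Usp40, a deubiquitinase gene, had -0.25 (adjusted p = 0.111 by edgeR).

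The wider pathway was described by 148 further genes in 8 lists by role, of which 93 were tested and 55 had too few reads. Of the 93, 9 were called higher and 2 lower (11.8% in all, beside 6.39% of all tested genes). An unadjusted edgeR p under 0.05 was seen in 22 of the 93, beside 18.0% of all tested genes. The median log2 fold change of the 93 was 0.03, against -0.00047 over all tested genes. DESeq2 called 13, with 10 higher and 3 lower, beside 769 of all 11772 tested genes.

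**Figure D5:**
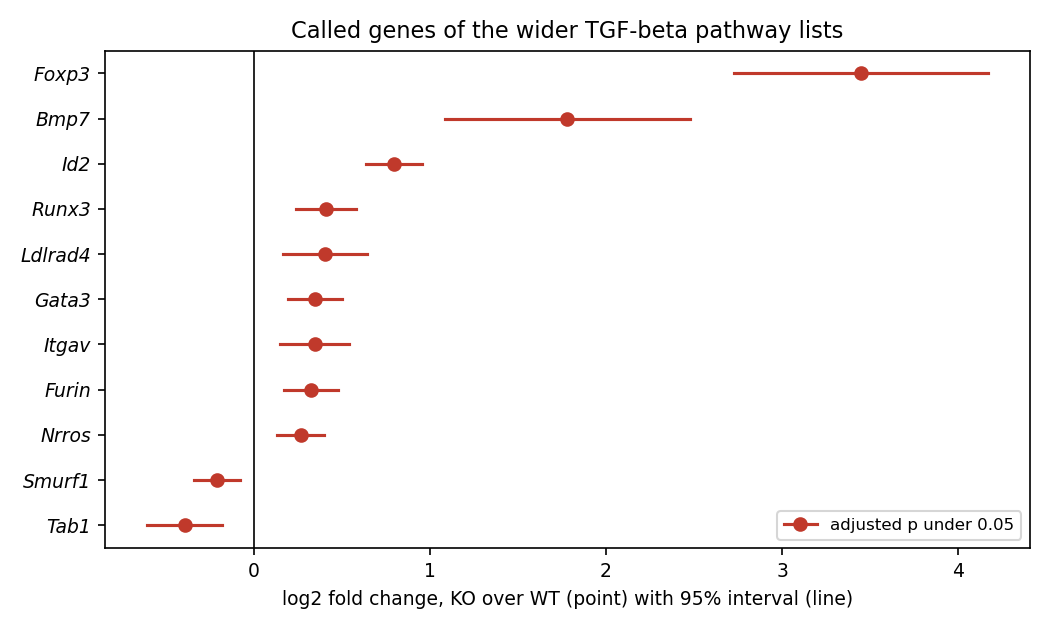
Log2 fold change, KO over WT, of the 11 called genes of the wider pathway lists, as points with 95% intervals from edgeR as lines. Foxp3 (3.45) and Bmp7 (1.78) stand furthest to the right, followed by Id2 (0.80). Another 6 genes lie between 0.27 and 0.41, and Smurf1 (-0.21) and Tab1 (-0.39) lie left of 0.

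Among genes for other ligands and for the release of latent TGF-beta, 4 of the 5 tested genes were called higher and 0 lower (3.98% and 2.41% over all tested genes), while the other 23 of the 28 listed had too few reads to be tested. The median log2 fold change of the 5 was 0.33. With no count filter, the list held 5 genes called higher and 1 lower, beside 559 and 336 of 23678 genes. With limma-trend it held 3 higher and 1 lower, beside 439 and 241 of 16418 genes. The count of 0 lower thus depended on which genes had enough reads to be tested. Furin, the protease that cleaves pro-TGF-beta, had 76.3, 64.5, 77.5 and 78.5 CPM in the KO libraries, against 55.0, 62.4, 59.7 and 59.1 CPM in the WT libraries. All KO libraries were above all WT libraries, with Sample_2908_KO close to the WT range. Furin rose by 0.33 (log2, SE 0.076, edgeR adjusted p = 0.00569) and lost its call in 1 of 17 alternatives, without Sample_2911_WT and Sample_2914_WT together (0.29, adjusted p = 0.107, with a range of 0.000618 to 0.107).

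Nrros, which encodes a membrane protein that anchors latent TGF-beta 1 on myeloid cells, had 145.6, 148.5, 143.9 and 126.2 CPM in the KO libraries, against 122.9, 119.7, 120.4 and 107.1 CPM in the WT libraries. It rose by 0.27 (log2, SE 0.065, edgeR adjusted p = 0.00827), again with no overlap. Its call was lost without Sample_2915_WT (0.22, adjusted p = 0.0626, the highest over the 17 alternatives). Markers of myeloid and dendritic cells summed to 40.7 to 52.4 CPM in KO and 35.3 to 65.2 CPM in WT libraries, with 0 of the 4 tested markers called and S100a8 and S100a9 at 0 reads in all 8 libraries.

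Itgav, the integrin alpha chain whose heterodimers release latent TGF-beta, had 58.6, 51.0, 44.0 and 57.3 CPM in the KO libraries, against 41.9, 48.1, 39.2 and 38.1 CPM in the WT libraries. It rose by 0.35 (log2, SE 0.096, edgeR adjusted p = 0.0221), although Sample_2909_KO lay inside the WT range. The call was lost in 6 of 17 alternatives: with limma-trend (adjusted p = 0.0572), without Sample_2907_KO (0.117), Sample_2910_KO (0.0919), Sample_2914_WT (0.0989) or Sample_2915_WT (0.104), and without Sample_2911_WT and Sample_2914_WT together (0.206). The integrin beta chain genes Itgb6 and Itgb8, whose products pair with it for this release, were not tested, since Itgb6 had 0 reads in both groups and Itgb8 had 2 reads in KO and 6 in WT. Bmp7, a BMP ligand gene, was low but rose by 1.78 (log2, SE 0.34, edgeR adjusted p = 0.000683), with 3.18, 3.95, 3.03 and 3.62 CPM in the KO libraries against 1.16, 0.901, 1.11 and 0.779 CPM in the WT libraries. The call for Bmp7 held in all 17 alternatives. Gdf11, the uncalled gene of this list, gave a log2 fold change of 0.12 (adjusted p = 0.682 by edgeR).

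Among the untested ligand genes, Lrrc32 was picked out after its values were seen. It encodes GARP, the anchor of latent TGF-beta on activated regulatory T cells and platelets. It had 0 reads in all 4 KO libraries, against 1, 1, 25 and 14 reads in the WT libraries (0.193, 0.180, 1.11 and 1.21 CPM). The reads therefore came mainly from Sample_2914_WT and Sample_2915_WT, the WT libraries with the most reads and also with the highest CPM of Lrrc32. Set against the level of 3 reads in the pooled KO libraries (0.0882 CPM), Lrrc32 was at least 10.4-fold lower in KO than in pooled WT libraries (0.917 CPM), taking the WT level without error. With the counting error of both groups, the 95% interval for the ratio of KO to WT reached up to 0.124. Neither value includes the spread between WT libraries, which ran from 0.180 to 1.21 CPM. The 10.4-fold bound does not hold for Sample_2911_WT or Sample_2913_WT taken alone. Inhba, another untested ligand gene, had more reads in the KO libraries. It had 31, 1, 2 and 32 reads in the KO libraries, against 3, 2, 14 and 1 in the WT libraries. Most of its KO reads came from Sample_2907_KO and Sample_2910_KO. Tgfb3 had 24 reads in the KO libraries and 29 in the WT libraries, and Tgfb2 had 6 in the KO libraries and 5 in the WT libraries. RNA for the ligand was thus detected mostly as Tgfb1.

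Of 14 genes for other receptors of the family and their coreceptors, 8 were tested and 0 were called by edgeR (6.39% over all tested genes). These 8 had 2 genes at an unadjusted edgeR p under 0.05 (18.0% over all tested genes) and a median log2 fold change of -0.02. DESeq2 called 1 of them lower, Acvrl1, the ALK1 receptor gene (37.9 CPM in KO and 49.7 CPM in WT libraries, log2 fold change -0.40, DESeq2 adjusted p = 0.0335, edgeR adjusted p = 0.0777). Tgfbr3, the coreceptor betaglycan, gave a log2 fold change of 0.02 (adjusted p = 0.908 by edgeR). Acvr1b, an activin type I receptor gene, had -0.16 (adjusted p = 0.166 by edgeR). The SMADs of the BMP branch also gave no call: of 4 genes, 2 were tested, and edgeR and DESeq2 called 0, with 0 at an unadjusted p under 0.05. Smad5 gave a log2 fold change of 0.08 (adjusted p = 0.609 by edgeR) and Smad1 one of -0.03 (adjusted p = 0.929 by edgeR). Smad6, the second inhibitory SMAD gene, had 0 reads in both groups, and Smad9 had 2 reads in the KO libraries and 3 in the WT libraries. The inhibitory SMAD detected in these cells was thus Smad7.

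Of 30 genes for SMAD adaptors, phosphatases and ubiquitin enzymes, 29 were tested, with 1 called higher, 1 lower and a median log2 fold change of 0.01. The called share was 6.90%, near the 6.39% of all tested genes. Smurf1, the close relative of Smurf2, had 91.5, 98.3, 105.1 and 95.3 CPM in the KO libraries, against 110.0, 118.4, 110.5 and 113.0 CPM in the WT libraries. It fell by 0.21 on the log2 scale (SE 0.063, edgeR adjusted p = 0.0424), with all KO libraries below all WT libraries. The call for Smurf1 held in 7 of 17 alternatives (adjusted p between 0.0160 and 0.162). It was lost with no count filter (0.0624), limma-trend (0.0661) and a non-robust fit (0.0525), without Sample_2907_KO (0.162), Sample_2910_KO (0.110), Sample_2911_WT (0.0533), Sample_2913_WT (0.127), Sample_2914_WT (0.0702) or Sample_2915_WT (0.0947), and without Sample_2911_WT and Sample_2914_WT together (0.111).

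Ldlrad4, which encodes a membrane protein that keeps SMAD2 and SMAD3 from the receptor, had 29.8, 36.3, 33.1 and 35.1 CPM in the KO libraries, against 23.2, 33.9, 23.8 and 22.3 CPM in the WT libraries. Sample_2913_WT stood inside the KO range and the other WT libraries below it. Ldlrad4 rose by 0.41 (log2, SE 0.12, edgeR adjusted p = 0.0287), and the call held in 8 of 17 alternatives. It was lost with limma-trend (adjusted p = 0.0621) and a non-robust fit (0.0510), without Sample_2908_KO (0.0697), Sample_2909_KO (0.0551), Sample_2910_KO (0.0870), Sample_2911_WT (0.0714), Sample_2914_WT (0.121) or Sample_2915_WT (0.136), and without Sample_2911_WT and Sample_2914_WT together (0.336). Of its 5371 exon bases, 2798 are shared with Fam210a on the opposite strand, and the library kit does not keep strand, so reads of the pair cannot be told apart there. Fam210a itself gave a log2 fold change of -0.04 (adjusted p = 0.868 by edgeR). The uncalled genes of highest level in this list were Usp9x, a deubiquitinase gene (-0.03, edgeR adjusted p = 0.888), and Ctdsp2, a SMAD phosphatase gene (0.12, edgeR adjusted p = 0.315).

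Of 22 genes for nuclear SMAD partners and corepressors, 19 were tested, with 1 called higher, 0 lower and a median log2 fold change of 0.03. The called share was 5.26%, near the 6.39% of all tested genes. Runx3, a transcription factor that works with SMADs, had 131.2, 102.6, 124.9 and 127.8 CPM in the KO libraries, against 88.0, 98.8, 79.6 and 100.9 CPM in the WT libraries. It rose by 0.41 (log2, edgeR adjusted p = 0.00231), with no overlap, and lost its call without Sample_2911_WT and Sample_2914_WT together (0.28, adjusted p = 0.0931). The corepressor gene Ncor1 gave a log2 fold change of -0.06 (adjusted p = 0.602 by edgeR) and the coactivator gene Ep300 one of 0.15 (adjusted p = 0.121 by edgeR). The SMAD-independent branch had 18 genes, all tested, with a median log2 fold change of -0.00095. Of these, 0 were called higher and 1 lower (5.56%, beside 6.39% of all tested genes). This was Tab1, the activator of the kinase TAK1, with 23.7, 26.9, 32.7 and 32.5 CPM in the KO libraries, against 35.7, 37.5, 39.9 and 37.9 CPM in the WT libraries. Tab1 fell by 0.39 on the log2 scale (SE 0.10, edgeR adjusted p = 0.0168), with no overlap. It lost its call without Sample_2907_KO (adjusted p = 0.101), Sample_2914_WT (0.0734), or Sample_2911_WT and Sample_2914_WT together (0.119). Rock1 gave a log2 fold change of -0.03 (adjusted p = 0.871 by edgeR) and Rhoa one of 0.08 (adjusted p = 0.497 by edgeR), both genes of actin control.

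Of 18 genes listed as induced by TGF-beta, 7 were tested, with a median log2 fold change of 0.62. Whether TGF-beta induces each of them in naive CD4 T cells was not tested. Of the 7, 2 were called higher and 0 lower (3.98% and 2.41% over all tested genes). An unadjusted edgeR p under 0.05 was seen in 5 (18.0% over all tested genes). The 2 called genes were Foxp3, the defining factor of regulatory T cells, and Id2, an inhibitor of E proteins. Foxp3 stood at 55.1, 93.2, 112.7 and 112.6 CPM in the KO libraries, against 8.11, 8.83, 9.76 and 6.92 CPM in the WT libraries (log2 fold change 3.45, edgeR adjusted p = 0.000881). Id2 stood at 67.9, 69.9, 73.9 and 66.8 CPM in the KO libraries, against 38.4, 42.9, 38.2 and 41.5 CPM in the WT libraries (log2 fold change 0.80, edgeR adjusted p = 1.40e-08). Both calls held in all 17 alternatives. Both genes answer to signals other than TGF-beta as well, and exons of Foxp3 overlap those of other annotated genes.

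Id3, a relative of Id2, gave a log2 fold change of 0.62 (adjusted p = 0.0718 by edgeR) and Spsb1, an adaptor gene of a ubiquitin ligase, had -0.34 (adjusted p = 0.0636 by edgeR). Id3 passed in 7 of 17 alternatives (adjusted p between 2.51e-08 and 0.176), among them DESeq2 (0.000605), limma-voom (0.00901), a non-robust edgeR fit (0.00933), and edgeR without Sample_2908_KO (0.00779) or Sample_2914_WT (0.0368). Spsb1 passed in 2 of 17 (adjusted p between 0.0464 and 0.191), with library size alone (0.0464) and without Sample_2910_KO (0.0497). Smad7 and Skil, members of the core set that TGF-beta induces in many cell types, were not called. Of 14 genes known to be restrained by TGF-beta in T cells, 5 were tested, with a median log2 fold change of 0.24. Of the 5, 1 was called higher and 0 lower, beside 3.98% and 2.41% of all tested genes. Gata3, the Th2 lineage factor, rose by 0.35 (log2, edgeR adjusted p = 0.00268), with 77.4, 66.0, 66.1 and 69.9 CPM in the KO libraries against 51.0, 56.6, 56.3 and 54.7 CPM in the WT libraries. It lost its call without Sample_2911_WT and Sample_2914_WT together (adjusted p = 0.0549). Myc gave a log2 fold change of -0.15 (adjusted p = 0.296 by edgeR) and the perforin gene Prf1 one of -0.14 (adjusted p = 0.437 by edgeR). The other 9 genes of this list had too few reads to be tested, so its count of 0 lower covers the 5 alone. Among those untested, Cxcr3 had 7 reads in the KO libraries and 32 in the WT libraries, and Il2 had 10 and 2.

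The CD3+CD4+CD25- gate with low or no CD44 is meant to remove NK, B, CD8 and activated T cells, and markers of these cells were read in the same libraries. Markers of NK cells summed to 21.4 to 23.5 CPM in KO and 25.7 to 29.3 CPM in WT libraries, and Klrd1 fell (log2 fold change -0.51, edgeR adjusted p = 0.00837), while Eomes had 0.26 (adjusted p = 0.579). Markers of activated or memory T cells (Cd44 and Il2ra) summed to 34.4 to 41.2 CPM in KO and 41.1 to 49.5 CPM in WT libraries, and Cd44 fell (-0.34, edgeR adjusted p = 0.0262), while Il2ra had 0.41 (adjusted p = 0.392). B cell markers summed to 356.8 to 411.9 CPM in KO and 443.0 to 480.2 CPM in WT libraries, nearly all of it Ighm, which fell (-0.27, edgeR adjusted p = 0.00132), while Cd79b had 0.77 (adjusted p = 0.404) and Cd79a -0.01 (adjusted p = 0.991). The defining B cell gene Ms4a1 had 3 reads in KO and 0 in WT. Markers of CD8 T cells summed to 9.65 to 14.7 CPM in KO and 13.2 to 18.2 CPM in WT libraries, with 0 called of the 1 tested. The NK and B cell sums were lower in every KO library and the activation sums overlapped slightly, each sum following its most abundant gene. Their part in the difference of Smad3 was not tested.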

How the data were processed

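Poly(A) RNA libraries were made with a TruSeq v2 kit, which does not keep strand, and sequenced as single reads, per the labels' protocols. The submitters' processing notes name CASAVA 1.8.2, FastQC, R 3.5.3, DESeq2 1.22.2 and the mm10 build; not given in the sources used here are the aligner, read counter, annotation and use of strand. The deposited tables hold whole-number read counts per gene, and a normalized signal per gene that equals the deposited count divided by 1 size factor per library.

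Samples were grouped by label (4 KO, 4 WT). Replicates differed beyond sampling noise (chi-square per gene 2.67 to 11.26) and each was counted. Counts were tested across all genes with edgeR 4.0.16 (R 4.3.3; robust quasi-likelihood F test, TMM, filterByExpr), with Benjamini-Hochberg adjustment over 11772 genes. SE was taken as the size of the log2 fold change divided by the root of F. Positions, exon lengths and overlaps came from GENCODE M21 (GRCm38), which held 53360 of 53465 gene IDs. Steps were tested on simulated data. Ratios used a prior count of 0.5.

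Alternatives were DESeq2 1.42.0, limma 3.58.1 (voom with sample weights, and trend on log2 of the deposited normalized signal plus 1), RLE size factors, library size alone, no count filter, 1 CPM in 4 samples, a non-robust fit, each library left out in turn, and Sample_2911_WT and Sample_2914_WT left out together.

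The genes, lists, tests and alternatives were chosen with earlier results of these data known. Named were all 10 genes, Satb1, in each list the called genes (up to 6) and up to 2 uncalled genes of highest level, neighbours, overlapping genes, and the 3 genes most like each called gene. Untested genes, Acvrl1 and the marker genes were named after their values were seen. Some marker genes are not reported here. The intervals of fitted fold changes include the spread between libraries, whereas the floor (3 pooled reads) and the interval given for pooled reads cover counting error only.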

Additional observations from a re-analysis of the deposited data

Results flagged for a closer look

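Each group of 4 libraries was examined for a single library far from the other 3, by Dixon's ratio at its 95% critical value. The 82 groups came from the levels of the 10 core genes, Satb1 and genes named from the lists, and from the 4 ratios. Chance flags about 1 group in 20, and 3 groups were flagged, none of them of the 10 core genes. Furin was low in Sample_2908_KO, at 64.5 CPM, against 76.3, 77.5 and 78.5 CPM in the other KO libraries. Ldlrad4 was high in Sample_2913_WT, at 33.9 CPM, against 23.2, 23.8 and 22.3 CPM in the other WT libraries; without that library its log2 fold change was 0.54 (edgeR adjusted p = 0.00183; range over its 17 alternatives 0.00183 to 0.336). Rhoa was high in Sample_2907_KO, at 240.3 CPM, against 221.3, 224.1 and 223.6 CPM in the other KO libraries.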

How the results depend on the processing

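Of the 10 core genes, 1 was called (Smad3), and 0 were called with limma-voom, with limma-trend, with the non-robust fit and without Sample_2911_WT and Sample_2914_WT together. With 1 library left out the count was 0 to 1. The count over all genes, 752, was 481 without those 2 WT libraries (323 higher, 158 lower) and the count of wider pathway genes, 11, was 4; with 1 library left out the pathway count was 7 to 12. Without those 2 WT libraries, Usp9x (0.0075) and Rock1 (0.00012) turned direction. With 1 library left out, log2 fold changes ranged from -0.025 to 0.10 for Tgfb1, -0.022 to 0.067 for Tgfbr1, -0.040 to 0.088 for Tgfbr3, -0.11 to 0.026 for Smad1, -0.064 to 0.043 for Usp9x and -0.065 to 0.020 for Rock1, all uncalled and turning direction in some of these settings. The cause was not tested. The other 8 core genes kept their direction under all 17 alternatives, and none of the 4 ratios turned direction in the settings run for them. No paired analysis was possible because no sample number is shared between KO and WT. The 4 libraries a group limit the precision, and WT libraries differed in depth.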
